A study of Rattus norvegicus with 8 samples.

Results

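Interferon-stimulated genes and the genes of interferon signalling were examined in left ventricles of late-pregnant rats whose hearts had gone through ischemia, the interruption of blood supply, and reperfusion. The list held 42 genes chosen by name: receptors, transcription factors, sensors of foreign nucleic acid and antiviral effectors. It was drawn up with earlier results of these data known, so its shares beside those of all named genes are description only. A gene was measured where a probe set of the array carried its symbol, or its older symbol, and no other. That gave 39 genes with 1 probe set each, out of 14497 named genes on the array. The other 3, Ifnar2, Parp14 and Xaf1, were not matched to a probe set and were not analysed here.

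The study compared 5 hearts reperfused with the treatment the labels call ILPD with 3 hearts reperfused with vehicle (placebo). The series title names Intralipid, an emulsion of fat droplets for intravenous use. The design text abbreviates it ITLD and gives 1 bolus of 5 mg/kg at reperfusion, and both abbreviations are taken here to mean the same treatment. All 8 hearts had ischemia and reperfusion, and no heart free of ischemia was part of the comparison. The labels do not state the strain, the age, the length of ischemia or reperfusion, or which part of the ventricle was taken. They number the samples but do not tie each to an animal of its own. The p-values therefore rest on the scatter among these 8 samples, part of which may be technical. The values are log2 expression as deposited. Array medians lay between 7.16 and 7.196 in ILPD and between 7.078 and 7.14 in placebo. Precision is limited by how few arrays there are. The 12 markers of ventricular cardiomyocytes had a mean log2 value of 13.31 to 13.45 in ILPD arrays and 13.49 to 13.53 in placebo arrays.

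Interferons are cytokines that put cells into an antiviral state. Type I interferons bind the receptor of Ifnar1 and Ifnar2, whose kinases act on STAT2, among others. STAT2 joins IRF9 in a complex that binds interferon-stimulated response elements (ISRE) in promoters. Interferon gamma binds the receptor of Ifngr1 and Ifngr2 and acts on genes with gamma-activated sites (GAS). In the heart, cardiomyocytes, endothelial cells, fibroblasts and infiltrating leukocytes can all respond.

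Of the 39 measured genes, 8 were higher and 1 was lower in ILPD at an adjusted p under 0.05 in limma, and 30 did not pass. Those that rose were Ifngr1, Irf9, Ifit2, Ifit3, Oas1a, Oasl, Mx1 and Rtp4, and the gene that fell was Bst2. The 8 that rose were 20.5% of the list, against 2.29% of all named genes (332 of 14497), and the 1 that fell was 2.56%, against 1.17% (169 of 14497). Over all 28826 probe sets, 2.81% passed in either direction. The median difference over the list was 0.25 on the log2 scale, against 0.01 over all named genes. The list had 32 positive and 7 negative differences, against 7973 positive and 6524 negative over all named genes. In 15 genes (38.5%) every ILPD array lay above every placebo array, against 8.19% of all named genes, and in 1 gene (2.56%) every ILPD array lay below, against 5.83%. The calls of Ifngr1, Irf9 and Ifit2 passed in each of the 14 alternative fits, the 8 that leave out 1 array included. The number of genes that rose was 4 after a further quantile normalization and 4 after cyclic loess normalization. It was 3 without placebo array 2, placebo array 3 or ILPD array 2, and 4 without placebo array 1 or ILPD array 4.

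**Figure D1:**
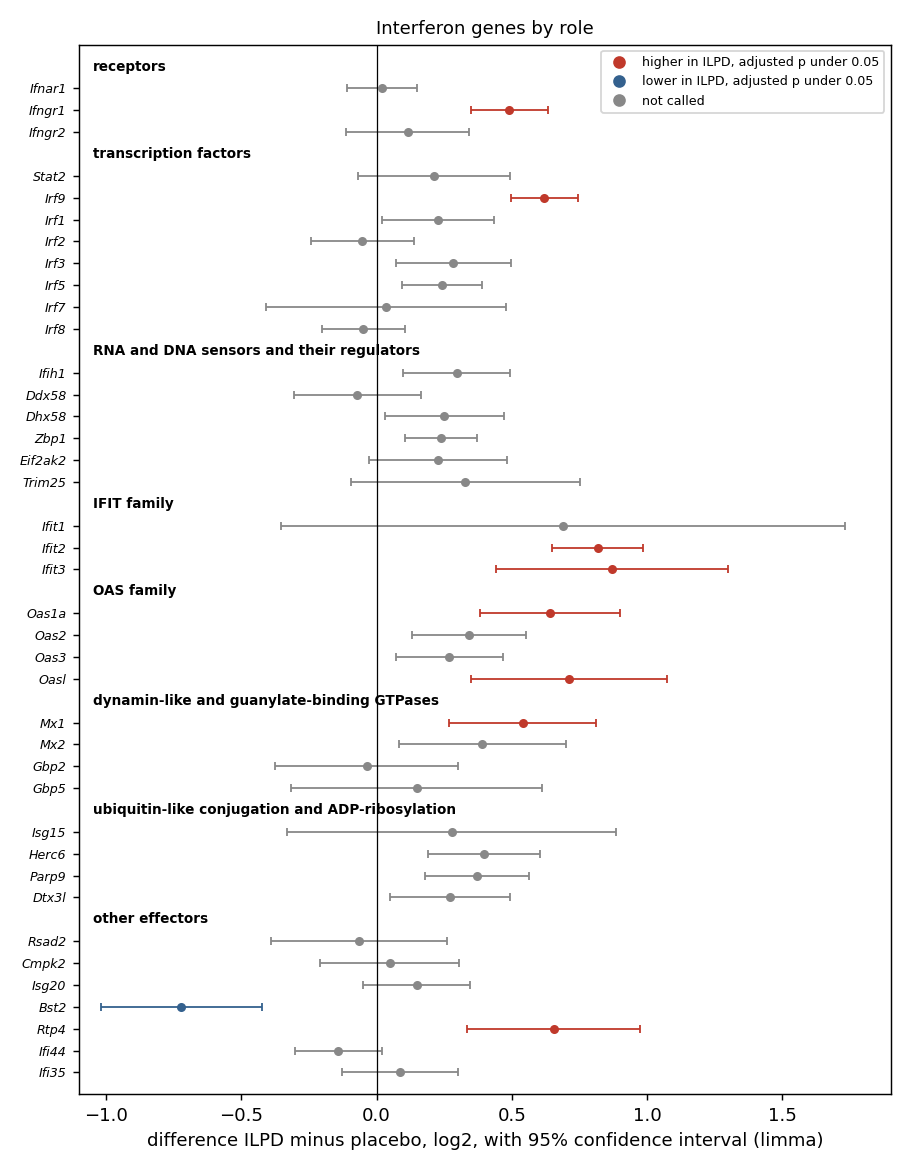
Difference between ILPD and placebo (x axis, log2) for each of the 39 measured interferon genes (y axis), grouped by role, as a point with the 95% confidence interval from limma. Red points passed the test as higher and the blue point as lower in ILPD. All points of the IFIT and OAS families are positive, and Bst2, at -0.72, is far from the other effectors.

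RefSeq promoters of build GRCr8, from 250 bases before to 50 bases after the start of the gene, were found for 32 of the 42 genes. An ISRE core, searched as GAAANNGAA on both strands, was in 16 of these 32 (50%), against 9.71% of all 33469 RefSeq promoters. A GAS, searched as TTCNNNGAA, which reads the same on both strands, was in 7 of 32 (21.9%), against 8.87%. In Bst2 a GAS match overlapped an ISRE match. The ISRE core was in 2 of 6 promoters of genes that rose (Ifit3 and Oas1a), in the promoter of Bst2, which fell, and in 11 of 22 promoters of genes that did not pass. Among all named genes that rose it was in 8.01% of 287 promoters.

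The stretches that hold the ISRE core are shown for the called genes, with the nucleotides of each match in capitals, and for 3 effectors that did not pass, as a contrast. They lie at chr1:241527268-241527325 (Ifit3), chr12:41330410-41330454 (Oas1a), chr16:18255069-18255113 (Bst2), chr6:48788243-48788281 (Rsad2), chr6:48802744-48802782 (Cmpk2) and chr12:41439622-41439666 (Oas3). Bst2 and Rsad2 are on the minus strand and the others on the plus strand, and each is written from its own strand.

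Ifit3 (rose): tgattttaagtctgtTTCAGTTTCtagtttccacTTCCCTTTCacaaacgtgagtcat
Oas1a (rose): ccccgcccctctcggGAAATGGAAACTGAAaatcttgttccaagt
Bst2 (fell): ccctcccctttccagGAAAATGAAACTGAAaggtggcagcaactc
Oas3 (not called): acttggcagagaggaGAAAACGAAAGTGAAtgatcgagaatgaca
Rsad2 (not called): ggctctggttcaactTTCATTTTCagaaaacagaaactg
Cmpk2 (not called): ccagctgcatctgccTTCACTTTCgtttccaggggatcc

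In Oas1a, Bst2 and Oas3 the capitals are 2 overlapping matches, and in Ifit3, Rsad2 and Cmpk2 the match is on the other strand. The first match started 43 bases before the gene start in Ifit3, 41 in Oas1a, 131 in Bst2, 95 in Oas3, 146 in Rsad2 and 91 in Cmpk2.

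The GAS match is shown for the 3 transcription factor genes that held one, Irf9, Irf1 and Irf8, since 1 of them rose and 2 did not pass. They lie at chr15:33065722-33065760 (Irf9), chr10:38417778-38417816 (Irf1) and chr19:65699089-65699146 (Irf8), all on the plus strand, with the matches in capitals.

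Irf9 (rose): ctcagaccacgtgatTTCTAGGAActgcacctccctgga
Irf1 (not called): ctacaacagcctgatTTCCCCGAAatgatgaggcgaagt
Irf8 (not called): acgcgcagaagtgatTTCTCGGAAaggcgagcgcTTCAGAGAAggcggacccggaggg

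The receptor chains did not move together. Ifngr1, the ligand-binding chain of the interferon gamma receptor (probe set 10701924), had log2 values of 11.61, 11.69, 11.54, 11.50 and 11.58 in ILPD arrays 1 to 5, against 11.19, 11.01 and 11.09 in placebo arrays 1 to 3. The groups did not overlap, and both were narrow. Ifngr1 rose by 0.49 (SE 0.06, limma adjusted p = 0.00573), a 1.41-fold difference, with means of 11.58 ± 0.07 (SD, n = 5) in ILPD and 11.09 ± 0.09 (SD, n = 3) in placebo. Its partner Ifngr2, the signalling chain, differed by 0.11 with a 95% interval of -0.11 to 0.34 (adjusted p = 0.611). Ifnar1, a chain of the type I receptor, differed by 0.02 with an interval of -0.11 to 0.15 (adjusted p = 0.903). In RefSeq gene order Ifnar2, Ifnar1 and Ifngr2 lie in this order on chromosome 11, with Ifnar1 and Ifngr2 adjacent, while Ifngr1 lies on chromosome 1.

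Of the 8 transcription factors, 1 rose. Irf9, the DNA-binding subunit of the complex that type I interferon activates (probe set 10780433), had log2 values of 9.33, 9.28, 9.30, 9.37 and 9.32 in ILPD, against 8.79, 8.70 and 8.61 in placebo. The 5 ILPD arrays lay within 0.08 of each other, the smallest range among all 39 genes, and far above the placebo arrays. Irf9 rose by 0.62 (SE 0.06, adjusted p = 0.00108), a 1.54-fold difference, with means of 9.32 ± 0.03 (SD, n = 5) in ILPD and 8.70 ± 0.09 (SD, n = 3) in placebo. Stat2, the STAT that brings IRF9 to the complex, had values of 9.27, 9.26, 8.87, 9.03 and 9.25 in ILPD, against 9.18, 8.67 and 8.92 in placebo. These overlapped, and the difference of 0.21 had an interval of -0.07 to 0.49 (adjusted p = 0.418).

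Among the other factors, Irf1 and Irf5 had ILPD arrays above placebo arrays throughout but did not pass. Irf1, an early target of interferon gamma, had 8.95, 8.94, 8.98, 9.32 and 9.01 in ILPD, against 8.93, 8.79 and 8.72 in placebo (difference 0.23, adjusted p = 0.232). Irf5, a factor of myeloid cells downstream of Toll-like receptors, had 7.82, 7.90, 7.75, 7.86 and 7.88 in ILPD, against 7.74, 7.52 and 7.54 in placebo (difference 0.24, adjusted p = 0.0857). In both genes placebo array 1 lay just below the lowest ILPD array. Irf3, the factor that starts interferon transcription, differed by 0.28 (adjusted p = 0.152), Irf7, which amplifies it, by 0.03 (0.953), Irf2, an antagonist of IRF1, by -0.05 (0.805), and Irf8, a factor of myeloid cells, by -0.05 (0.774).

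The IFIT genes encode proteins that bind foreign RNA and block its translation. They are neighbours on chromosome 1 in RefSeq gene order, with Ifit2 and Ifit3 adjacent and 1 protein-coding gene between Ifit3 and Ifit1. Ifit2 (probe set 10714900) had log2 values of 9.32, 9.29, 9.31, 9.33 and 9.12 in ILPD, against 8.62, 8.39 and 8.37 in placebo. Ifit3 (probe set 10714903) had 9.66, 9.34, 8.82, 9.11 and 8.80 in ILPD, against 8.54, 8.04 and 8.24 in placebo. Ifit1 (probe set 10714907) had 10.51, 9.43, 7.74, 9.26 and 8.84 in ILPD, against 8.37, 8.495 and 8.54 in placebo. ILPD arrays of Ifit2 were close together, those of Ifit3 spread over 0.86, and those of Ifit1 spread over 2.76, the widest of the list, with ILPD array 1 far above and ILPD array 3 below every placebo array. Ifit2 rose by 0.82 (SE 0.08, adjusted p = 0.0011), a 1.76-fold difference with means of 9.28 ± 0.09 (SD, n = 5) in ILPD and 8.46 ± 0.14 (SD, n = 3) in placebo. Ifit3 rose by 0.87 (SE 0.19, adjusted p = 0.0453), the highest difference of the list, with means of 9.15 ± 0.36 in ILPD and 8.28 ± 0.25 in placebo. The call of Ifit3 was lost without placebo array 1, 2 or 3 or ILPD array 2 or 4 (adjusted p up to 0.157) and after either normalization. The difference of Ifit1, 0.69 (SE 0.47), was of like size but had an interval of -0.35 to 1.73 and did not pass (adjusted p = 0.487). It was 0.35 without ILPD array 1 and 1.04 without ILPD array 3.

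**Figure D2:**
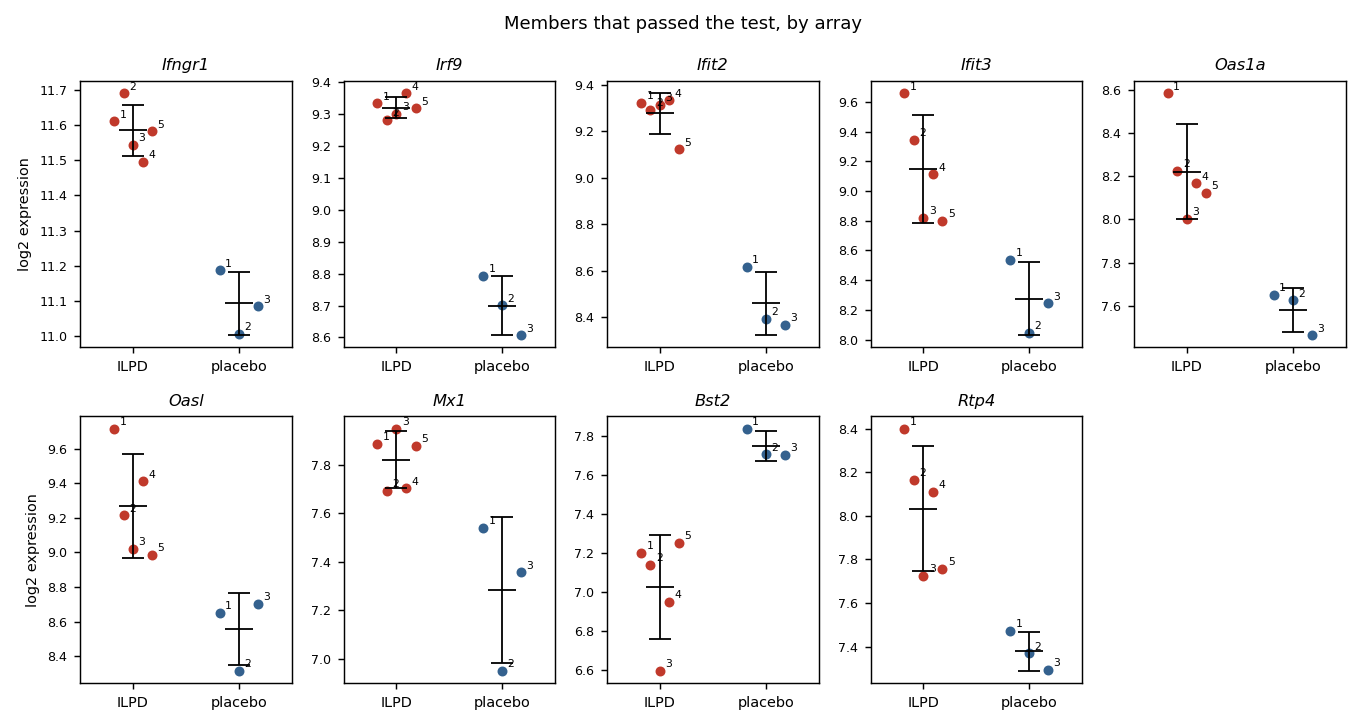
Log2 expression (y axis) of the 9 interferon genes that passed the test, with each array as a point numbered by replicate, ILPD on the left and placebo on the right of each panel, and the mean and SD as bars. The axes differ between panels and do not start at 0. The groups do not overlap in any of the 9, and Bst2 is the gene whose ILPD arrays lie below.

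The oligoadenylate synthetases make the second messenger that activates the RNA-degrading enzyme RNase L. All 4 measured genes of the OAS family, the synthetase-like Oasl included, had positive differences and 2 rose. Oas1a (probe set 10758777) had log2 values of 8.58, 8.22, 8.002, 8.17 and 8.12 in ILPD, against 7.65, 7.62 and 7.46 in placebo, and rose by 0.64 (SE 0.12, adjusted p = 0.0231). Oasl (probe set 10762740) had 9.72, 9.21, 9.02, 9.41 and 8.99 in ILPD, against 8.65, 8.32 and 8.70 in placebo, and rose by 0.71 (SE 0.16, adjusted p = 0.0493). In both, ILPD array 1 was the highest of the 8. The call of Oas1a was lost without placebo array 1, 2 or 3 or ILPD array 2 (adjusted p up to 0.0954). That of Oasl was lost in 10 of 14 alternatives, among them leaving out placebo array 1, 2 or 3 or ILPD array 2, 3 or 4 (up to 0.17), and with the replicate number as a block. Oas2 had 7.52, 7.18, 7.18, 7.54 and 7.43 in ILPD, against 7.05, 7.04 and 6.999 in placebo, with no overlap (difference 0.34, adjusted p = 0.0906). Oas3 differed by 0.27 (adjusted p = 0.146).

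Further genes of the OAS1 cluster on chromosome 12, taken from a list of other interferon-induced genes, also had positive differences. Oas1k had values of 10.36, 10.03, 9.92, 10.39 and 9.65 in ILPD, against 9.37, 8.93 and 8.77 in placebo, and rose by 1.05 (SE 0.18, adjusted p = 0.0193), more than any of the 39 genes. Oas1b had 8.01, 7.69, 7.80, 7.86 and 8.13 in ILPD, against 7.45, 7.36 and 7.53 in placebo, and rose by 0.45 (SE 0.10, adjusted p = 0.0412). Neither gene overlapped between groups. Oas1i, of the same cluster and named after its values were seen, differed by 0.74 and did not pass (adjusted p = 0.0547), although its groups did not overlap. The call of Oas1k failed when placebo array 2 or 3 was left out (up to 0.087). That of Oas1b was lost in 9 of 14 alternatives, including both normalizations, the replicate block and leaving out any placebo array or ILPD array 1, 3 or 4 (up to 0.143). These paralogs are alike in sequence, and how far their probe sets share targets was not tested.

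Of the 4 GTPases of the dynamin-like and guanylate-binding families, 1 rose and 3 did not pass. Mx1, which in rodents restricts viruses in the nucleus (probe set 10753425), had log2 values of 7.89, 7.69, 7.95, 7.70 and 7.88 in ILPD, against 7.54, 6.95 and 7.36 in placebo. It rose by 0.54 (SE 0.12, adjusted p = 0.0475), with placebo array 2 far below the rest. The call was lost in 10 of 14 alternatives, including both normalizations and leaving out placebo array 2 or 3 or any ILPD array (up to 0.114), and the difference was 0.37 without placebo array 2. Mx2, 1 gene away on chromosome 11, differed by 0.39 with overlapping groups (interval 0.08 to 0.70, adjusted p = 0.17). Gbp2 differed by -0.04 (interval -0.37 to 0.30, adjusted p = 0.933) and Gbp5, which assembles inflammasomes, by 0.15 (interval -0.32 to 0.61, adjusted p = 0.772).

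None of the 4 measured genes of ubiquitin-like conjugation and ADP-ribosylation passed, though all differences were positive. Herc6, the ligase that attaches ISG15 in mice, had 8.96, 8.95, 8.85, 9.19 and 8.92 in ILPD, against 8.40, 8.60 and 8.73 in placebo (difference 0.40, adjusted p = 0.0517). Parp9, an ADP-ribosyltransferase, had 8.65, 8.66, 8.62, 8.61 and 8.98 in ILPD, against 8.30, 8.37 and 8.32 in placebo (difference 0.37, adjusted p = 0.0518). Neither gene overlapped between groups. Herc6 passed in 2 of 14 alternatives and Parp9 in 3. Dtx3l, the ubiquitin ligase that partners PARP9, differed by 0.27 (adjusted p = 0.187), and in RefSeq it starts 1214 bases from Parp9 on the opposite strand. Isg15 itself, the ubiquitin-like modifier, had 9.17, 8.32, 7.71, 8.11 and 7.90 in ILPD, against 8.01, 7.78 and 8.11 in placebo. ILPD arrays 1 and 2 exceeded the placebo arrays, ILPD array 4 equalled the highest of them at this rounding, and the difference of 0.28 had an interval of -0.33 to 0.89 (adjusted p = 0.652), with 0.05 left without ILPD array 1.

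The sensors had small positive differences in 5 of 6 genes, and 0 passed (limma, with 3 of 6 at an unadjusted p under 0.05, a level that 3035 of 14497 named genes reached). Ifih1, a sensor of long double-stranded RNA, had 8.95, 8.88, 8.65, 8.75 and 9.04 in ILPD, against 8.52, 8.51 and 8.65 in placebo (difference 0.30, adjusted p = 0.111). Zbp1, a sensor of Z-form nucleic acid that can start necroptosis, had 7.26, 7.05, 7.20, 7.17 and 7.25 in ILPD, against 6.92, 6.96 and 6.96 in placebo (difference 0.24, adjusted p = 0.0656). Their groups did not overlap, though in Ifih1 the lowest ILPD and the highest placebo array were equal at this rounding. Dhx58 differed by 0.25, Eif2ak2, the kinase PKR that halts translation, by 0.23, and Trim25, the ligase that activates RIG-I, by 0.33, with adjusted p from 0.218 to 0.408. Ddx58, which encodes RIG-I, differed by -0.07 with an interval of -0.31 to 0.16 (adjusted p = 0.785).

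The remaining effectors moved in both directions. Rtp4, a chaperone of receptor transport that also binds viral RNA (probe set 10755088), had log2 values of 8.40, 8.17, 7.73, 8.11 and 7.76 in ILPD, against 7.47, 7.37 and 7.29 in placebo. It rose by 0.65 (SE 0.14, adjusted p = 0.0441), a call lost after both normalizations and without any 1 placebo array or ILPD array 2 or 4 (up to 0.14). Bst2, or tetherin, which holds budding virus at the cell surface (probe set 10790811), had 7.202, 7.14, 6.60, 6.95 and 7.25 in ILPD, against 7.84, 7.71 and 7.71 in placebo. It fell by 0.72 (SE 0.13, adjusted p = 0.0254), with means of 7.03 ± 0.27 (SD, n = 5) in ILPD and 7.75 ± 0.08 (SD, n = 3) in placebo, and the highest ILPD array was 0.45 below the lowest placebo array. The call was lost without any 1 placebo array or without ILPD array 4 (up to 0.0888), and it held after both normalizations.

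None of the other effectors passed the test. Rsad2, or viperin, which makes a chain-terminating nucleotide, had 8.11, 7.82, 7.46, 8.23 and 7.91 in ILPD, against 7.96, 7.92 and 8.03 in placebo (difference -0.06, interval -0.39 to 0.26, adjusted p = 0.871). Cmpk2, the mitochondrial nucleotide kinase beside it on chromosome 6, differed by 0.05 (interval -0.21 to 0.31, adjusted p = 0.879). Their starts are 14730 bases apart on opposite strands. Isg20, an exonuclease, differed by 0.15, Ifi35 by 0.09 and Ifi44 by -0.14, with adjusted p from 0.341 to 0.696.

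The list was uneven within the ILPD group. The median SD over the 39 genes was 0.16 among ILPD arrays and 0.13 among placebo arrays, against 0.10 and 0.09 over all named genes. When each gene was centred on its mean over the 8 arrays, the list's median was 0.19, 0.09, -0.06, 0.08 and 0.09 in ILPD arrays 1 to 5, against -0.08, -0.24 and -0.13 in placebo arrays 1 to 3. The same median over all named genes stayed between -0.03 and 0.03 in each array. ILPD array 1 held the highest ILPD value in 14 of 39 genes and the lowest in 0, and ILPD array 3 held the lowest in 23. Among placebo arrays, array 1 was highest in 22 genes and array 2 lowest in 20. The 30 genes that did not pass had medians of 0.16, 0.07, -0.08, 0.05 and 0.09 in ILPD arrays, against -0.0045, -0.20 and -0.11 in placebo arrays, so that ILPD array 3 fell among the placebo arrays there.

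**Figure D3:**
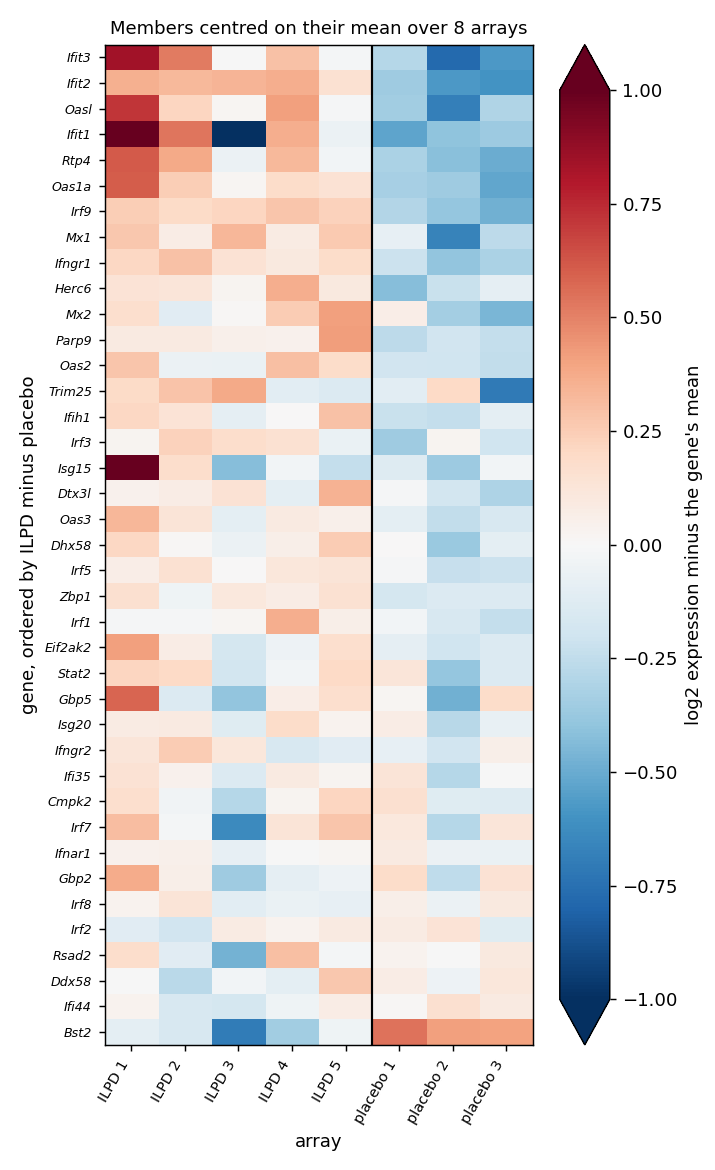
Log2 expression of each measured interferon gene minus its mean over the 8 arrays, as colour (red above, blue below, scale ending at 1 and -1), with arrays in columns, ILPD left of the line and placebo right of it, and genes in rows ordered by the difference. The top rows are mostly red in ILPD and blue in placebo, though Ifit1 is blue in ILPD array 3. Bst2 at the bottom is blue in ILPD and red in placebo, and ILPD array 1 is red over most rows.

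The 5 genes with the widest spread among ILPD arrays of those that did not pass, chosen after their values were seen, were Ifit1, Isg15, Irf7, Gbp5 and Rsad2. Their SD was 1.0005, 0.57, 0.39, 0.36 and 0.30 in ILPD, against 0.09, 0.17, 0.23, 0.35 and 0.05 in placebo. In each of them ILPD array 3 was the lowest of the ILPD arrays, and in 4 of them ILPD array 1 was the highest. In Rsad2 it was ILPD array 4.

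**Figure D4:**
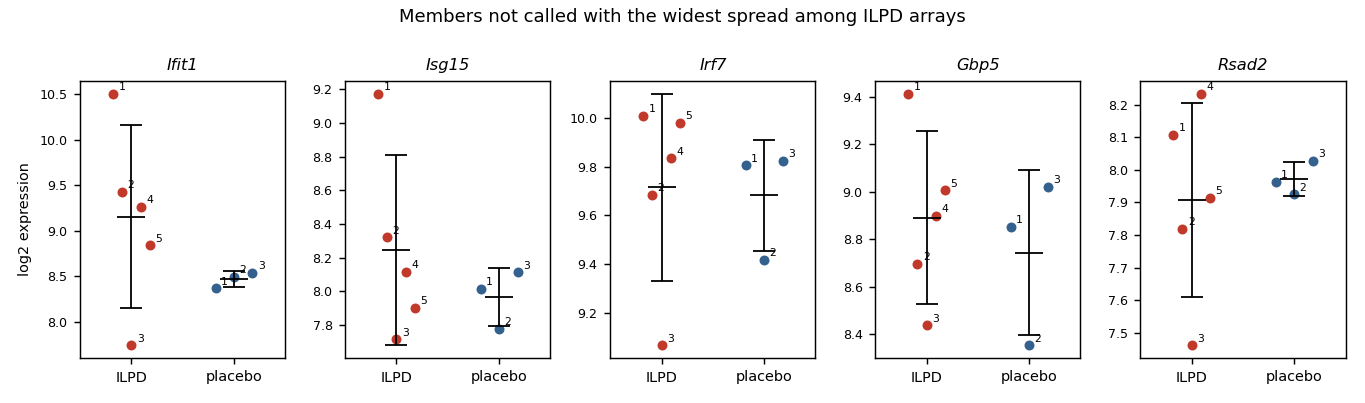
Log2 expression (y axis, differing between panels and not starting at 0) of the 5 genes that did not pass and had the widest spread among ILPD arrays, with each array as a numbered point, ILPD left and placebo right, and the mean and SD as bars. ILPD array 3 is the lowest ILPD array in each panel, and ILPD array 1 the highest in all but Rsad2.

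Other genes of the pathway were read from 4 further lists with 78 measured genes of 111, of which 7 rose (8.97%) and 1 fell (1.28%), beside 2.29% and 1.17% of all named genes. Of the interferons, 5 of 11 were measured and 0 passed (limma, with 0 at an unadjusted p under 0.05). Ifnb1, Ifng, Ifna4 and Ifnk were dim, below 6.77, under which the lowest 40% of probe sets lie, so a difference in them may not be measurable here. Ifng differed by 0.22 (adjusted p = 0.301) and Ifnb1 by 0.06 (adjusted p = 0.764), and Ifna5, with the highest mean signal of this list, had an adjusted p of 0.983 on the brightest of its 4 probe sets.

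In the list of JAK kinases, STATs and their inhibitors 1 of 14 rose. This was Socs1, the feedback inhibitor of JAK kinases, with 8.99, 8.75, 8.89, 8.62 and 8.72 in ILPD, against 8.36, 8.22 and 8.42 in placebo (difference 0.46, SE 0.09, adjusted p = 0.0282). Its call was lost without any 1 placebo array or ILPD array 2 or 3 (up to 0.113). The kinase Jak1 had 11.27, 11.47, 11.17, 11.11 and 11.18 in ILPD, against 11.62, 11.48 and 11.48 in placebo, and the difference of -0.29 did not pass (adjusted p = 0.104). Jak2, which serves the interferon gamma receptor, had 9.92, 9.96, 9.68, 9.52 and 9.26 in ILPD, against 9.57, 9.56 and 9.54 in placebo, with overlap (difference 0.11, adjusted p = 0.737). The kinase Tyk2 was not matched to a probe set. Stat3, with the highest mean signal of this list, differed by 0.01 (adjusted p = 0.978).

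Upstream of the interferons, 2 of 13 genes of nucleic acid sensing rose and 1 fell. Tlr7, the endosomal receptor for single-stranded RNA, rose by 0.69 (SE 0.15, adjusted p = 0.04), with 8.91, 8.81, 8.83, 8.48 and 9.06 in ILPD, against 8.46, 7.88 and 8.03 in placebo. Ikbke, a kinase that phosphorylates IRF3, rose by 0.34 (SE 0.05, adjusted p = 0.0137), with 7.15, 7.17, 7.14, 7.22 and 7.05 in ILPD, against 6.84, 6.79 and 6.79 in placebo. Azi2, an adaptor of the kinase TBK1, fell by 0.55 (SE 0.09, adjusted p = 0.013), with 9.35, 9.46, 9.12, 9.12 and 9.12 in ILPD, against 9.78, 9.80 and 9.78 in placebo. None of the 3 overlapped between groups. Leaving out placebo array 2 or 3 ended each of these calls, and that of Tlr7 was also lost without ILPD array 1, 2, 3 or 5 and after quantile normalization (up to 0.142). Those of Ikbke and Azi2 were also lost with the replicate number as a block (up to 0.0687 and 0.062 over the alternatives). Mavs, the adaptor of RIG-I on mitochondria and the gene of this list with the highest mean signal, differed by -0.34 (adjusted p = 0.0645), with no overlap.

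Of 46 other interferon-induced genes 4 rose and 0 fell: Oas1k, Oas1b, Sp100 and Mov10. Sp100, a component of nuclear bodies, had 10.37, 10.39, 10.36, 10.30 and 10.30 in ILPD, against 9.998, 9.87 and 9.92 in placebo. It rose by 0.42 (SE 0.05, adjusted p = 0.00537) and passed in each of the 14 alternatives. Mov10, an RNA helicase, had 8.18, 7.94, 7.92, 8.21 and 7.99 in ILPD, against 7.71, 7.63 and 7.64 in placebo, with no overlap. It rose by 0.39 (SE 0.08, adjusted p = 0.034), a call lost in 8 of 14 alternatives, both normalizations, the replicate block, each placebo array and ILPD arrays 2 and 4 among them (up to 0.121). Ifitm3, with the highest mean signal of this list, differed by -0.03 (adjusted p = 0.864).

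Levels of neutrophil markers and of monocyte and macrophage markers followed the arrays of the interferon genes in part. T and NK cell markers put the 8 arrays in the same order as the median of the interferon genes. In a bulk sample more cells of a type and more RNA per cell cannot be told apart. The 12 measured neutrophil markers had a mean log2 value of 9.12, 8.93, 8.29, 8.74 and 8.32 in ILPD arrays 1 to 5, against 8.21, 7.62 and 7.78 in placebo arrays 1 to 3. The 15 monocyte and macrophage markers had 9.21, 9.13, 8.92, 8.89 and 9.01 in ILPD, against 8.91, 8.61 and 8.81 in placebo. ILPD array 1 was highest and placebo array 2 lowest in both lists, as in the interferon genes. The lowest ILPD array was array 3 for the neutrophil markers, but array 4 for the monocyte and macrophage markers. The difference was positive for 12 of 12 neutrophil markers (median 0.88) and 12 of 15 monocyte and macrophage markers (median 0.155), beside 7973 of 14497 named genes. Of the neutrophil markers 1 rose, the gelatinase Mmp9, by 0.58 (limma adjusted p = 0.0466) with overlapping groups. Of the monocyte and macrophage markers 1 rose, the chemokine receptor Cx3cr1, by 0.76 (limma adjusted p = 0.0311). Over all named genes 2.29% rose. The call of Mmp9 was lost in 12 of 14 alternatives, among them each left-out array but ILPD array 3 (up to 0.162), and that of Cx3cr1 in 6, among them each left-out placebo array and ILPD array 2 (up to 0.123). The 15 T and NK cell markers had 7.47, 7.43, 7.38, 7.39 and 7.45 in ILPD, against 7.34, 7.19 and 7.32 in placebo. Smooth muscle and pericyte markers ranged from 9.68 to 9.90 in ILPD and from 9.56 to 9.67 in placebo. Endothelial markers ranged from 10.18 to 10.39 in ILPD and from 10.07 to 10.15 in placebo. In both of these lists ILPD array 1 was the lowest ILPD array. B cell markers ranged from 6.78 to 6.95 in ILPD and from 6.72 to 6.76 in placebo. The B cell markers were highest in ILPD array 5. Markers of plasmacytoid dendritic cells, a main source of type I interferon, ranged from 8.11 to 8.26 in ILPD and from 8.24 to 8.25 in placebo, and that list shares Bst2 and Irf8 with the interferon genes. The part of these cells in the differences was not tested.

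**Figure D5:**
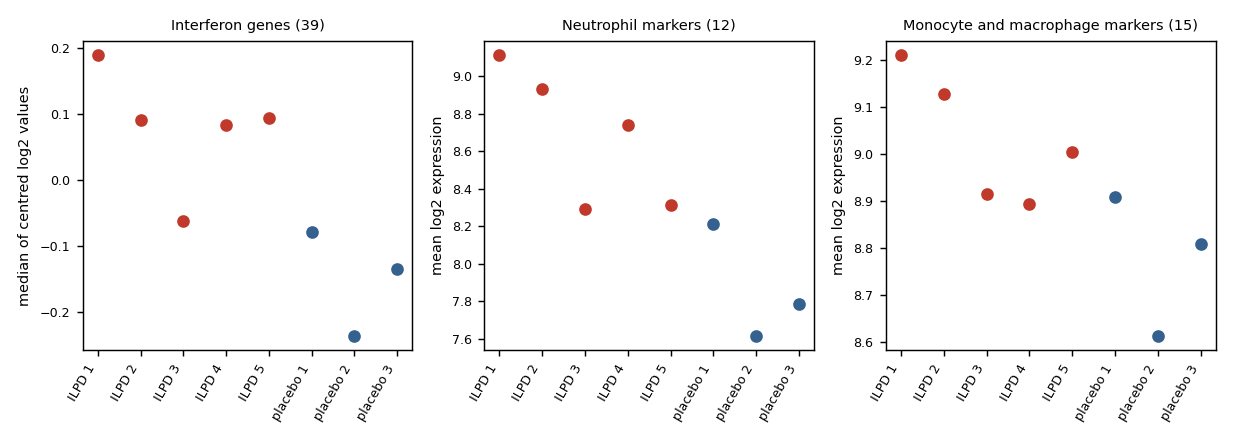
Per-array levels (x axis, ILPD arrays in red left of placebo arrays in blue) of the 39 interferon genes (left panel, median of centred log2 values), 12 neutrophil markers (middle panel, mean log2 expression) and 15 monocyte and macrophage markers (right panel, mean log2 expression). The axes do not start at 0. ILPD array 1 is the highest and placebo array 2 the lowest point in all 3 panels.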

How the data were processed

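Total RNA of left ventricle was labelled with biotin and hybridised to Affymetrix rat gene arrays by the maker's standard procedure, per the labels' protocols. The authors deposited log2 values for 28826 probe sets on 8 arrays; the scale was read from the range of the values, R 2.14.2 is named in the submitters' processing notes, and the normalization and probe set summary are not given in the sources used here. No detection call was used. Probe sets were named from the platform annotation, updated through a RefSeq table of assembly GRCr8: 15209 had 1 gene symbol, 306 several and 13311 none here. The brightest probe set stood for a gene.

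ILPD was compared with placebo in limma 3.58.1 (R 4.3.3; lmFit and eBayes, no covariates, two-sided). The p-values were adjusted after Benjamini and Hochberg across every probe set, and 0.05 was the threshold. Differences are ILPD minus placebo on the log2 scale. On simulated data of this comparison with 200 changed among 28826 probe sets in each of 5 runs, 92.4% of 1.5-fold and 99% of 2-fold changes were recovered, and 5.9% of calls were false. The noise was normal, independent for each probe set, and drawn from the fitted variances. It held no effect shared by the genes of an array, so these rates may not hold for the real arrays. Python 3.11.15 with matplotlib 3.10.9 drew the figures. Alternative fits used quantile or cyclic loess normalization, a robust prior with intensity trend, array weights, or the replicate number as a block, dropped the dimmest 40% of probe sets or each array in turn, or raised the threshold to 0.10. In the block fit ILPD arrays 4 and 5 have no placebo array of their number, so only arrays 1 to 3 of each group are compared. The members, the lists and the alternatives were chosen with earlier results of these data known. Values of all arrays are given for each listed gene that passed or whose groups did not overlap, for Stat2, for Jak1 and Jak2 and for called pathway genes. The other listed genes are given by their differences, and so is the gene of each pathway list with the highest mean signal. Ifng, Ifnb1 and Oas1i were named outside this rule, and the array values of Ifit1, Isg15 and Rsad2 were given outside it.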

Additional observations from a re-analysis of the deposited data

Results flagged for a closer look

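Among the 39 genes, 3 had 1 ILPD array far from the other 4, by a gap of more than 0.71 of the group's range. Chance gives such a gap in about 5% of groups. Irf1 was at 9.32 in ILPD array 4, against 8.94 to 9.01 in the other ILPD arrays. Ifit2 was at 9.12 in ILPD array 5, against 9.29 to 9.33, and still above every placebo array. Parp9 was at 8.98 in ILPD array 5, against 8.61 to 8.66, and it passed the test (adjusted p = 0.0211) when that array was left out.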

How the results depend on the processing

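The median difference over the list stayed positive, between 0.21 and 0.30, in all 14 refits, and quantile normalization moved the median of all probe sets from 0.02 to -0.01. Counts moved more. Of all probe sets 564 were higher and 247 lower; quantile normalization gave 302 higher, an adjusted p of 0.10 gave 1159 higher and 597 lower, and leaving out 1 array gave 116 to 600 higher and 56 to 375 lower. Of the 39 genes, 8 rose; quantile and cyclic loess normalization gave 4 each, 0.10 gave 13, and leaving out 1 array gave 3 to 8, with 0 or 1 lower. Of the other pathway genes 7 rose and 1 fell; 0.10 gave 14 and 3, array weights gave 3 lower, and leaving out 1 array gave 1 to 9 higher and 0 to 2 lower. A fit without an array has fewer samples; other causes were not tested. With the replicate number as a block, 337 probe sets were higher and 122 lower, 7 of the 39 genes rose and 0 other pathway genes fell. Deviations of same-numbered arrays correlated at r = 0.221, -0.064 and -0.098 for numbers 1, 2 and 3. Arrays of unlike number gave r from -0.165 to 0.247, and the numbers were not taken as pairs. Uncalled differences near 0 changed sign: Irf7 with array weights (-0.0111) and the block (-0.0949), Gbp2 with the block (0.0015), and Cmpk2 after quantile normalization (-0.0124), with array weights (-0.0007) and the block (-0.0205). Leaving out 1 array gave -0.0087 to 0.07 for Ifnar1, -0.10 to 0.20 for Irf7, -0.17 to 0.0501 for Gbp2, -0.0468 to 0.29 for Gbp5, -0.15 to 0.0468 for Rsad2, -0.0007 to 0.14 for Cmpk2 and -0.0284 to 0.18 for Ifi35. None of the 39 genes had more than 1 probe set, so the mean over probe sets is the same value for them. It was not run for the pathway genes Ifna5 and Lgals9, which had 4 and 2. The setting for linear values was not run, since the values are log2.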

Other observations

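Outside the interferon genes, 2 endothelial and 2 NK cell markers rose. Differences were positive for 8 of 10 endothelial, 7 of 8 smooth muscle and pericyte and 14 of 15 T and NK cell markers. They were negative for 8 of 10 fibroblast and 12 of 12 cardiomyocyte markers. Over all 14497 named genes 7973 differences were positive and 6524 negative. Of them 2.29% were called higher and 1.17% lower. In 8.19% every ILPD array lay above every placebo array. Most cardiomyocyte markers changed sign in at least 1 alternative fit, among them Mb (up to 0.15), Pln (up to 0.14) and Tnnt2 (up to 0.12). Only Myh7 and Tnnc1 of that list stayed negative throughout. Of 10 endothelial markers 2 rose, Egfl7, a secreted factor of endothelial cells, by 0.60 (SE 0.12, limma adjusted p = 0.0282) and Robo4, a receptor of endothelial cells, by 0.43 (SE 0.09, adjusted p = 0.0381). Of 15 T and NK cell markers 2 rose, the NK receptors Klrd1 by 0.52 (SE 0.10, adjusted p = 0.0304) and Klrb1a by 0.46 (SE 0.09, adjusted p = 0.03). Each was higher in 5 of 5 ILPD arrays than in any placebo array. Leaving out placebo array 2 or 3 ended each of the 4 calls (adjusted p up to 0.116), and leaving out placebo array 1 ended all but that of Klrb1a. The calls of Egfl7, Robo4 and Klrb1a also ended without ILPD array 2 or 3, those of Robo4 and Klrb1a without ILPD array 4, and that of Robo4 without ILPD array 5. All 4 were lost after quantile normalization, those of Robo4, Klrd1 and Klrb1a after cyclic loess normalization, and those of Robo4 and Klrb1a with the replicate number as a block. Tnnc1, of the cardiomyocyte markers, fell by 0.37 (adjusted p = 0.0195) as 1 of 12, a call lost without placebo array 2 or 3, after both normalizations and with the block (up to 0.205).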
